A study of Mus musculus with 2 samples.

Results

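Classical monocytes marked by Ly6c2 were examined among non-parenchymal cells of fibrotic mouse liver, with 482 such cells out of 24093 cells kept from 2 libraries. A cell was counted as a classical monocyte from its raw UMIs (unique molecular identifiers, tags that each mark 1 RNA molecule). It needed at least 3 UMIs of Ly6c2 and at least 3 of Ccr2, Chil3, F13a1 and Vcan together. It could hold at most 10 UMIs of the macrophage genes C1qa, C1qb and C1qc, at most 2 of the B cell genes Cd79a, Cd79b and Ms4a1, and at most 3 of the neutrophil genes Retnlg, Csf3r and Cxcr2. Cells with any UMI of Siglech or of Cd3d, Cd3e and Cd3g were left out. Before this, barcodes with under 200 genes or over 20% mitochondrial UMIs were removed.

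The study compared livers of Mfap2+/+ mice (WT) with livers of Mfap2-/- mice (KO), the latter lacking a glycoprotein of the extracellular microfibrils. Both groups had received the hepatotoxin CCl4 (carbon tetrachloride) by injection into the peritoneum for 8 weeks, so no untreated liver stands beside them. Each genotype gave 1 droplet library, and the labels do not say how many animals went into it, nor their strain, age or sex. Nothing below is therefore tested between genotypes, and genotype, animal and library cannot be told apart. Intervals are exact 95% intervals and cover counting error only.

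Classical monocytes are made in the bone marrow, enter the blood under the control of the chemokine receptor Ccr2 and are recruited to injured liver, where they can become macrophages. Patrolling monocytes are the other main blood subset, carry little Ly6c2 and depend on the nuclear receptor Nr4a1. In bone marrow, Ly6c2 and Chil3 are also transcribed in precursors of the granulocyte lineage, which load their granules with Elane, Mpo and Prtn3 early and with Camp, Ngp and Ltf later.

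Short stretches of promoter are shown first for 5 genes chosen because 1 of 2 well known motifs lies in them, 4 of them from the 7 interferon genes at least 2-fold higher in the KO and 1, Hspe1, from the heat-shock list. The interferon-stimulated response element (ISRE) was searched as GAAA and GAAA parted by 2 bases of any kind, and the heat-shock element (HSE) as GAA, TTC and GAA, each parted by 2 such bases, on both strands of the 250 bases before each gene's start. The sequences are from RefSeq on GRCm38.p6, are written 5′ to 3′ along the gene and carry the motif in capitals, which begin and end with TTTC where an ISRE lies on the other strand. Rsad2 (chr12:26456453-26456702, minus strand), Slfn8 (chr11:83020811-83021060, minus strand), Ifit1 (chr19:34640639-34640888, plus strand) and Ifi213 (chr1:173599273-173599522, minus strand) are interferon response genes. Hspe1 (chr1:55087898-55088147, plus strand) encodes a mitochondrial chaperonin.
Rsad2: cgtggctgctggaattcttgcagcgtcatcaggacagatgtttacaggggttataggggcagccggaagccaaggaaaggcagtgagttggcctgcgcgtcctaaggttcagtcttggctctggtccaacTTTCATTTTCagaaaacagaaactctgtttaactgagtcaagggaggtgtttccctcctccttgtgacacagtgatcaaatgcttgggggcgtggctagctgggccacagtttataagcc
Slfn8: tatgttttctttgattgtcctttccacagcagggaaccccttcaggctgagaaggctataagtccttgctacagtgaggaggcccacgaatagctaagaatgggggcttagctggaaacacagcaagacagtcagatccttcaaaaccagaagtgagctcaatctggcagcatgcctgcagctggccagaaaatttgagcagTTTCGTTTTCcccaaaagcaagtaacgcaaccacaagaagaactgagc
Ifit1: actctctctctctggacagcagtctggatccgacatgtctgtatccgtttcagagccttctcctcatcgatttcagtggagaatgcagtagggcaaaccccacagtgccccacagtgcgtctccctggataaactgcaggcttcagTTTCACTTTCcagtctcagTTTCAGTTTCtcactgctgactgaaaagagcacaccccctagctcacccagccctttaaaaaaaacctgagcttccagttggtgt
Ifi213: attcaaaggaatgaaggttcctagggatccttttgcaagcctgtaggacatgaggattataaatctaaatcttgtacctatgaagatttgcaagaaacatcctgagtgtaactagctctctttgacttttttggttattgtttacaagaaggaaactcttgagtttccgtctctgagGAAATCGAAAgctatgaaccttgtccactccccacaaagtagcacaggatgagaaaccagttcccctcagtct
Hspe1: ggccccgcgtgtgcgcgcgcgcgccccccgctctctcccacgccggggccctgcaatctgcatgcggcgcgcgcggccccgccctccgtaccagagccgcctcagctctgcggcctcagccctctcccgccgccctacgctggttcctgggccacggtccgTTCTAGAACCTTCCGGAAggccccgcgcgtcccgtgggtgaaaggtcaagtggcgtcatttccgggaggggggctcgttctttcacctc
The ISRE of Rsad2 lies from -120 to -111 relative to the start, that of Slfn8 from -48 to -39 and that of Ifi213 from -73 to -64. Ifit1 holds 2 matches, the first starting at -104 and the last ending at -76. The capitals in Hspe1 span 2 overlapping HSE matches, from -89 to -72.
An ISRE was found in 13 of the 24 interferon response genes matched by symbol (54.2%), against 936 of all 27025 genes (3.46%). An HSE was found in 2 of 13 matched heat-shock genes (15.4%), Hspe1 and Hspd1, against 139 of 27025 genes (0.514%). Hspd1 overlaps Hspe1 on the opposite strand, so 1 stretch may have been counted for both genes, which was not checked. No ISRE was found in the window of Oasl1, Ifih1 or Ifit2, and no HSE in that of Hsph1, Hspa1a or Hspa1b. Hspe1 stood at 204 CPM in the WT and 321 CPM in the KO (log2 ratio 0.65). A match describes letters in the window and is no evidence of binding.

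Cells kept numbered 11370 in the WT and 12723 in the KO library, with median depths of 4932.5 and 6587 UMIs. Mfap2 itself had 257 UMIs in the cells kept of the WT and 4 in those of the KO. Of these, 1 UMI fell in the WT members and 0 in the KO members, where 3 counts would equal 1.26 CPM (UMIs summed over members and scaled to a total of 1e+06). The libraries shared 40 barcodes, of which 0 were members in both and 1 belonged to a KO member.

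The WT library held 277 classical monocytes, 2.44% of its cells (2.16 to 2.74). The KO library held 205, or 1.61% (1.40 to 1.85). The share was thus lower in the KO, with a log2 ratio of KO over WT of -0.60 (-0.86 to -0.33). Because the rule counts UMIs, deeper cells pass its minimums and fail its maximums more easily. It was therefore repeated after each cell with at least 3000 UMIs was thinned to that depth. Shallower cells were left out, so that 7710 of 11370 WT and 10118 of 12723 KO cells remained. The rule then found 186 of the WT cells (2.41%) and 130 of the KO cells (1.28%), a log2 ratio of -0.91. The unequal loss of shallow cells also enters this ratio. Patrolling monocytes, taken as cells with at least 3 UMIs of Ace, Cd300e and Treml4 and at most 2 of Ly6c2, went the other way, with 451 WT cells (3.97%) and 608 KO cells (4.78%). Members made up 38.0% of both monocyte groups together in the WT and 25.2% in the KO. Patrolling monocytes also had a deeper median in the KO, at 6306.5 UMIs against 5255 in the WT. Their share was not computed after thinning, so the part of depth in these 2 comparisons was not tested.

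Members were deeper than the average cell. Their median depth was 8499 UMIs and 2687 genes in the WT and 10820 UMIs and 3149 genes in the KO. The summed depth was 2.73687e+06 UMIs in the WT and 2.38059e+06 in the KO, which sets the precision of every level given here. Mitochondrial UMIs had medians of 2.08% and 1.92%, and ribosomal protein genes took 15.7% and 12.1% of UMIs.

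The genes of the rule are given as a description. The gene Ly6c2 (ENSMUSG00000022584, chromosome 15 from 75108158 to 75111970 on the minus strand of GRCm38) encodes the Ly6C surface antigen and had a median of 7 UMIs per WT member and 8 per KO member. Ccr2, the receptor for Ccl2, had a UMI in 81.6% of WT and 86.3% of KO members, F13a1, a coagulation factor subunit, in 74.0% and 78.5%, and Vcan, a proteoglycan, in 58.5% and 52.2%. Chil3, a chitinase-like lectin, had one in 78.7% and 67.8%. Chil3 stood at 1189 CPM in the WT and 491 CPM in the KO, and at 795 and 323 CPM without the granule-rich members described below. Ccr2 stood at 478 and 369 CPM, F13a1 at 575 and 528 CPM and Vcan at 318 and 304 CPM.
Just outside the rule, 47 WT and 26 KO cells met every other limit with 2 Ly6c2 UMIs, and just inside it 37 and 27 had 3. At the C1q limit, 89 WT and 109 KO members had 6 to 10 C1q UMIs, and 19 and 29 cells with 11 to 15 were left out. C1q UMIs were found in 97.8% of WT and 98.0% of KO members, at a median of 4 and 6 UMIs.

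The label went against the data for some members. In 33 WT members and 9 KO members, at least 2% of all UMIs came from 7 granule genes (Camp, Ngp, Ltf, Elane, Prtn3, Mpo and Cebpe). These granule-rich cells were 11.9% of WT members (8.34 to 16.3) and 4.39% of KO members (2.03 to 8.17), a log2 ratio of -1.44 (-2.69 to -0.35). The limit of 2% was chosen after the values were seen and falls in a gap, between 1.17% and 2.20% in the WT and between 1.69% and 3.12% in the KO. High levels of the 7 genes in the granule-rich cells follow from this choice.
All 33 and all 9 of them had under 3 UMIs of Ccr2, F13a1 and Vcan together, so they passed through Chil3, of which they held a median of 32 and 48 UMIs. The monocyte genes Csf1r (the receptor for colony-stimulating factor 1) and Klf4 together stood at 71.0 CPM in WT and 67.5 CPM in KO granule-rich cells. In members with under 0.2% granule UMIs they stood at 1088 and 1076 CPM.
Camp (ENSMUSG00000038357, chromosome 9 from 109847379 to 109849617 on the minus strand), which encodes the antimicrobial peptide cathelicidin, reached 35737 CPM in WT and 33511 CPM in KO granule-rich cells. In the other members it stood at 139 and 65.0 CPM, below B cells at 237 and 271 CPM. B cells were cells with at least 5 UMIs of Cd79a, Cd79b and Ms4a1 together and no UMI of Cd3d, Cd3e or Cd3g. No limit on C1q or neutrophil genes was set for them, so doublets can remain. The neutrophil and granule list summed to 2515 and 2711 CPM in B cells, against 1238 and 916 CPM in patrolling monocytes. The parts of free RNA in the droplets and of doublets in these levels were not tested. A Camp UMI was found in 74.4% of WT and 51.7% of KO members at median depths of 8499 and 10820 UMIs, beside 47.5% and 36.8% of B cells at 4000 and 5318.5 UMIs. After thinning to 3000 UMIs the shares were 42.1% and 17.8% of members and 32.7% and 19.8% of B cells, so that KO members were not above B cells.
The granule-rich cells were not all alike. Camp, Ngp, Ltf and Lcn2 outweighed the early granule genes Elane, Mpo, Prtn3 and Ctsg in 26 WT and 8 KO cells, and the early genes outweighed them in 7 and 1. At least 3 UMIs of the proliferation genes Mki67, Top2a and Birc5 were found in 19 of 33 WT and 5 of 9 KO granule-rich cells, and in 38 of 244 (15.6%) and 30 of 196 (15.3%) of the others. Between the 2 kinds lay 10 WT and 9 KO members with 0.2 to 2% granule UMIs. They held Elane, Mpo, Prtn3 and Ctsg at 6195 and 7048 CPM, against 322 and 187 CPM in the members below 0.2%, together with Ccr2, F13a1 and Vcan at 885 and 814 CPM. Elane, Mpo and Prtn3 are among the genes of the cut, so their higher level in these cells follows from it.

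**Figure D1:**
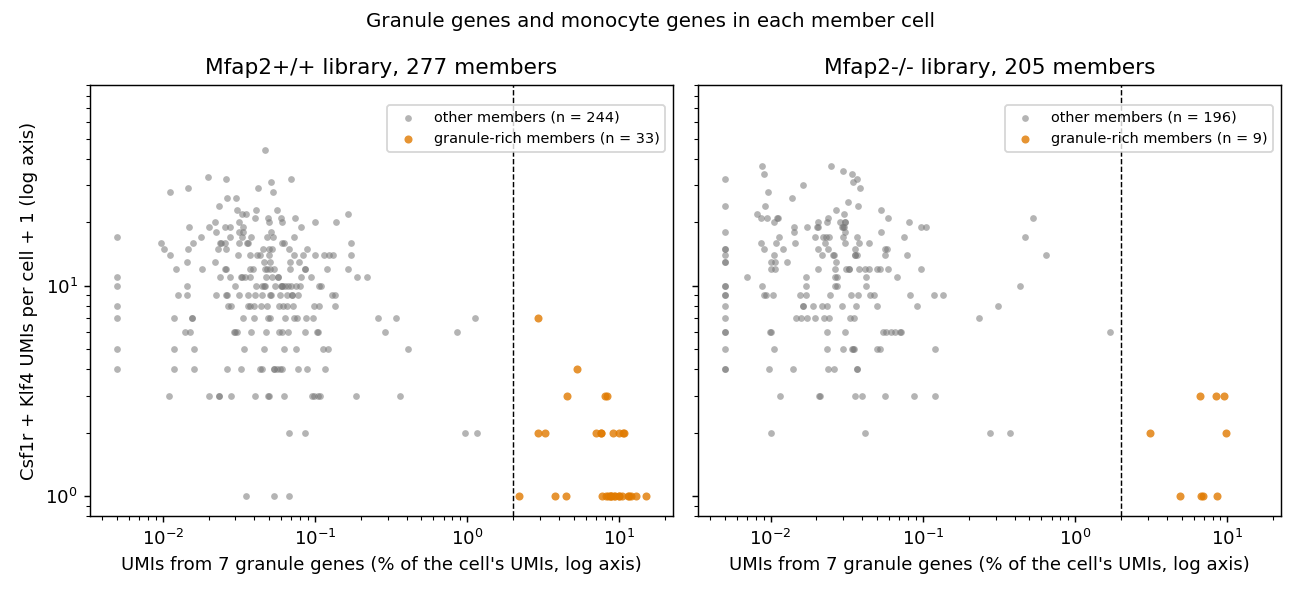
Each point is 1 member of the WT (left) or KO (right) library, plotted by the share of its UMIs from the 7 granule genes (log axis, cells with none drawn at 0.005%) and its UMIs of Csf1r and Klf4 plus 1 (log axis), with a dashed line at 2%. The 33 WT and 9 KO cells to the right of the line hold few UMIs of the monocyte genes.

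Each result below was also computed without the granule-rich members, an alternative chosen after the data were seen. The share of cells was then 2.15% in the WT and 1.54% in the KO, a log2 ratio of -0.48 (-0.76 to -0.20).

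Markers of other cell types were low in members apart from the granulocyte genes and, in the KO, the T and NK cell genes. Summed over the list, T and NK cell genes stood at 403 CPM in WT and 500 CPM in KO members (10 of 11 genes detected in each, Cd8a at 0 in the WT and Cd4 at 0 in the KO). The chemokine Ccl5 made up 259 and 307 CPM of these sums. The list stood at 364 and 247 CPM in patrolling monocytes, 286 and 221 in Clec4f-negative macrophages and 452 and 235 in B cells. KO members were thus above all of these groups. B cell genes stood at 450 and 610 CPM, endothelial genes at 186 and 206, mesenchymal genes at 156 and 111, cholangiocyte genes at 117 and 84.4 and plasmacytoid dendritic cell genes at 156 and 215. Hepatocyte genes were higher in the KO, at 195 and 309 CPM, and erythroid genes lower, at 475 and 153. Every gene of the B cell, endothelial, mesenchymal, cholangiocyte, plasmacytoid dendritic, hepatocyte and erythroid lists was detected in both. Neutrophil genes stood at 23099 and 11677 CPM, and at 4920 and 3172 CPM without the granule-rich members. Basophil or mast cell genes stood at 1.10 and 2.10 CPM with Fcer1a and Ms4a2 at 0 in both, and platelet genes at 2.19 and 1.26. The part of this RNA in the differences below was not tested.

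Classical monocyte genes outside the rule differed little between genotypes as a group. Their median log2 ratio of KO over WT was -0.04 over 18 genes, 7 higher and 11 lower, beside 0.08 over all 9996 genes with at least 20 UMIs. Fibronectin, Fn1 (ENSMUSG00000026193, chromosome 1 from 71585520 to 71653200 on the minus strand), stood at 832 CPM in the WT and 509 CPM in the KO (log2 ratio -0.71, -0.81 to -0.61). Cd177, a surface protein of neutrophils, had the lowest ratio of the list, at 89.5 and 49.1 CPM (-0.86), and stood at 33.8 and 29.2 CPM without the granule-rich members. Thrombospondin 1, Thbs1, went the other way, at 624 and 927 CPM (0.57, 0.48 to 0.66). Fn1 and Thbs1 both encode secreted matrix glycoproteins, and without the granule-rich members their ratios were -0.82 and 0.49. Cd14, the co-receptor for lipopolysaccharide, stood at 449 and 460 CPM, Itgam, an integrin chain, at 157 and 155 CPM, and Lyz2, lysozyme, at 6005 and 6528 CPM.

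Transcription factors and growth factor receptors of monocytes had a median log2 ratio of 0.05 over 15 genes. Spi1, which encodes the myeloid regulator PU.1, stood at 453 CPM in the WT and 455 CPM in the KO, and Csf1r at 291 and 299 CPM. Runx1, a factor of blood cell formation, was higher in the KO at 578 and 998 CPM (0.79, 0.69 to 0.88), and Cebpd was lower at 203 and 118 CPM (-0.78, -0.995 to -0.57). Runx1 was also higher in KO patrolling monocytes, macrophages and B cells, at 522 and 999, 764 and 1193, and 651 and 1095 CPM. Irf8, a factor of monocyte fate, stood at 174 and 149 CPM.

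Between the genotypes, 110 of 5754 genes with a mean level of at least 20 CPM (1.91%) were at least 2-fold higher in KO members and 39 (0.678%) at least 2-fold lower. Scaling by the median of ratios, which shifts every log2 ratio by -0.08, gave 79 and 47. Without the granule-rich members the numbers were 102 (1.77%) and 31 (0.539%) of 5750. Among genes with at least 20 UMIs, which the gene lists use, 429 of 9996 (4.29%) were at least 2-fold higher and 178 (1.78%) at least 2-fold lower. Without the granule-rich members these were 395 (4.04%) and 147 (1.5%) of 9775.

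Type I interferon response genes were higher in the KO. Of 29 measured, 26 had a higher level in KO members, 20 with an interval above 0, and 7 were at least 2-fold higher. Over all 9996 genes, 5692 were higher, 2062 with an interval above 0, and 429 (4.29%) were at least 2-fold higher. The interferon list had a median log2 ratio of 0.53, and 0.48 without the granule-rich members. Oasl1 (ENSMUSG00000041827, chromosome 5 from 114923240 to 114937915), which restrains translation of the interferon regulator Irf7, stood at 78.6 CPM in WT and 318 CPM in KO members (2.01, 1.80 to 2.24). This was the highest ratio among the genes ranked by the naming rule, and the gene overlaps Gm13822 on the other strand. Rsad2 (ENSMUSG00000020641, chromosome 12 from 26442746 to 26456452), the antiviral enzyme viperin, stood at 36.2 and 119 CPM (1.71, 1.38 to 2.06).
Other members of the list with large ratios were the RNA sensor Ifih1 at 76.7 and 222 CPM (1.53), Ifit2 at 13.5 and 37.0 (1.43), Slfn8 at 14.2 and 34.03 (1.24), Ifit1 at 23.7 and 52.1 (1.12) and Ifi213 at 22.3 and 47.9 (1.09). The ubiquitin-like Isg15 stood at 76.4 and 110 CPM (0.53). The list did not move as one: Irf7 stood at 69.1 and 72.3 CPM (0.07), Ifi27l2a at 1338 and 1479 (0.14) and the nucleic acid sensor Zbp1 at 68.7 and 59.6 (-0.20).
The higher Oasl1 level was spread over cells as well as concentrated in a few. An Oasl1 UMI was found in 75 of 277 WT members (27.1%) and 125 of 205 KO members (61.0%), beside 15.8% and 31.0% of B cells. After thinning to 3000 UMIs the shares were 12.8% and 28.7% of members and 10.5% and 16.1% of B cells. The 5 richest cells held 43.7% of all WT and 35.4% of all KO Oasl1 UMIs in members, and without them the log2 ratio was 2.21. For Rsad2 the shares were 15.9% and 37.6% of members, and 6.96% and 17.3% after thinning, beside 5.35% and 9.70% of thinned B cells.
The same list was higher in the KO library in other cells too. Its median log2 ratio was 0.52 in patrolling monocytes, 0.35 in Clec4f-negative macrophages (cells with at least 20 C1q UMIs and 0 of Clec4f) and 0.72 in B cells. Oasl1 stood at 28.4 and 115 CPM in patrolling monocytes, at 133 and 327 in the macrophages and at 53.9 and 121 in B cells. With 1 library per genotype, a difference between cell types in these ratios was not tested. Genes induced mainly by interferon gamma had a median log2 ratio of 0.18 over 12 genes, and the Ifitm genes, which block viral entry, one of -0.15 over 4.

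Heat-shock genes were higher in the KO throughout the list. All 16 measured had a higher level in KO members with an interval above 0, and 7 were at least 2-fold higher. Of all 9996 genes, 2062 had an interval above 0 and 429 (4.29%) were at least 2-fold higher. The heat-shock list had a median log2 ratio of 0.93, and 0.91 without the granule-rich members. Hsph1 (ENSMUSG00000029657, chromosome 5 from 149614287 to 149636376), a co-chaperone of the HSP70 proteins, stood at 117 CPM in the WT and 399 CPM in the KO (1.77, 1.58 to 1.96). Hspa1b (ENSMUSG00000090877, chromosome 17 from 34956436 to 34959238) stood at 942 and 2355 CPM (1.32). Hspa1a (ENSMUSG00000091971, chromosome 17 from 34969190 to 34972156) stood at 1060 and 2349 CPM (1.15). The last 2 encode near-identical HSP70 proteins, so reads may have been split between them and their single values are uncertain.
The co-chaperones Dnaja1 and Dnajb1 stood at 499 and 1125 CPM (1.17) and at 205 and 412 CPM (1.01), the co-chaperone Bag3 at 41.7 and 99.1 CPM (1.24), and the mitochondrial chaperonin Hspd1 at 132 and 280 CPM (1.09). The constitutive Hspa8 stood at 2534 and 3693 CPM (0.54). The lowest ratio in the list was that of Cacybp, at 75.3 and 99.6 CPM (0.40). Hspa5, the HSP70 protein of the endoplasmic reticulum and not in the list, stood at 495 and 1139 CPM (1.20).
A median KO member had 1.52% of its UMIs in the heat-shock list, against 0.642% in the WT, and 0.369% in the interferon list, against 0.262%. Heat-shock genes are also induced by tissue digestion, and they were higher in the KO in patrolling monocytes (median log2 ratio 0.70), macrophages (1.15) and B cells (0.69). The part of cell isolation in the ratio was not tested. Immediate early genes, another group that digestion can induce, had a median of 0.21 over 16 genes, 12 higher and 4 lower, with Fos at 6773 and 8271 CPM, Atf3 at 2086 and 3295 CPM and Dusp1 at 3295 and 3059 CPM. Nuclear-retained RNA, which is often read as a sign of damaged cells, had a median of 0.25 over 9 genes, with Malat1 at 6981 and 8827 CPM and Neat1 at 1870 and 3343 CPM.

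**Figure D2:**
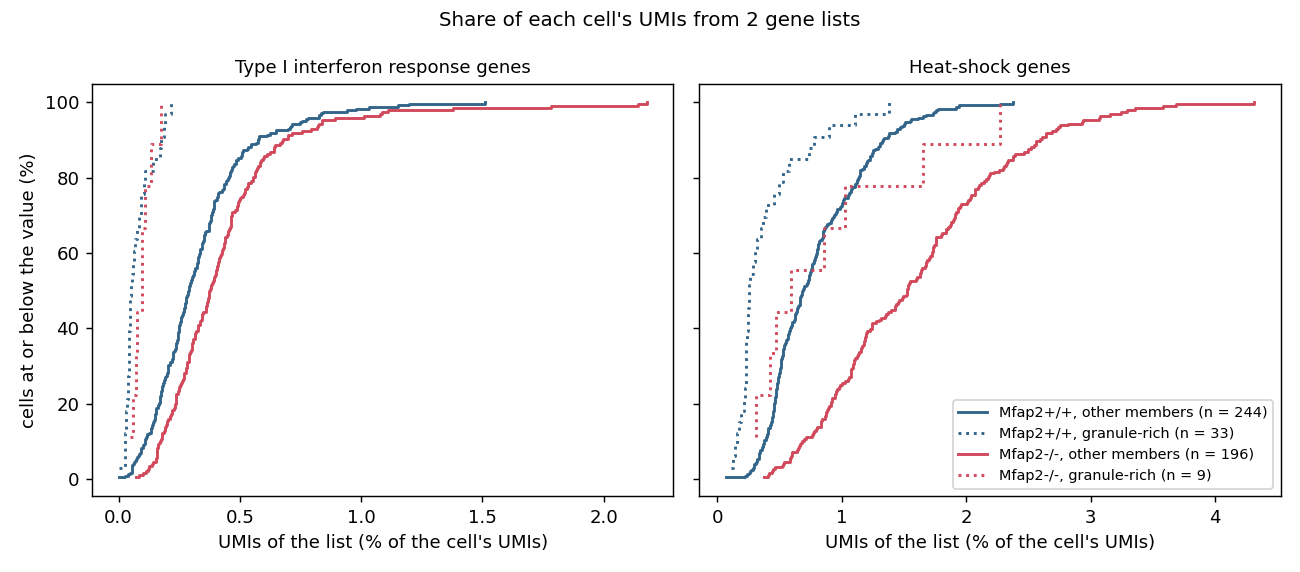
Cumulative share of members (y axis) against the percent of a cell's UMIs in the interferon and the heat-shock list (x axis), for WT and KO members without the granule-rich cells (solid lines) and for granule-rich cells (dotted lines). The KO lines lie mostly to the right of the WT lines, with medians of 0.376% and 0.287% for interferon genes and of 1.53% and 0.684% for heat-shock genes in the solid lines.

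Granule genes were lower in the KO, where fewer members were granule-rich. Of all 9996 genes, 4304 were lower and 178 (1.78%) at least 2-fold lower. Among the 14 granule genes measured, 13 were lower and 7 at least 2-fold lower, with a median log2 ratio of -1.01. Without the granule-rich members the median was -0.67, and the ratios of Elane, Mpo and Pglyrp1 were positive, at 0.51, 0.51 and 0.18. Of the UMIs of Elane, Mpo, Prtn3 and Ctsg that were left, 74.6% in the KO lay in the 9 members with 0.2 to 2% granule UMIs, and 50.3% in the WT in 10 such members. In the members below 0.2% these genes were lower in the KO, at 322 and 187 CPM. Elane, Mpo and Prtn3 are among the genes of the cut, so it caps their level there in both libraries. The part of free RNA in these values was not tested. S100a8 and S100a9, the subunits of calprotectin, stood at 8967 and 4287 CPM and at 11297 and 4952 CPM in all members. In members without the granule-rich cells they stood at 1116 and 355 CPM and at 1091 and 413 CPM, against 828 and 843 CPM and 1007 and 1037 CPM in B cells. Among those members, 5 cells held 54.2% of the S100a8 and S100a9 UMIs in the WT, 1 of them 29.2%, and 5 cells held 24.1% in the KO. In the members below 0.2% the genes stood at 1414 and 786 CPM together. Wfdc21, a gene of the WAP domain family, stood at 482 and 151 CPM (-1.67), and at 143 and 27.8 CPM without them.

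Genes of the cell cycle and of glycolysis were lower in the KO as groups under the rule at full depth. Over all 9996 genes, 4304 were lower. The cell cycle list had a median log2 ratio of -0.49 over 12 genes (1 higher, 11 lower), and -0.37 without the granule-rich members, with Tubb5, a tubulin, at 386 and 218 CPM (-0.82) and Stmn1, a regulator of microtubules, at 239 and 160 CPM (-0.58). Mki67, a marker of proliferation, was the member that was higher, at 92.1 and 111 CPM (0.27). Under the rule applied to thinned cells the ratios were 0.0035 for Tubb5, -0.0030 for Stmn1, -0.11 for Pcna and 1.05 for Mki67. The lower levels of Tubb5 and Stmn1 were thus not kept there. The glycolysis and hypoxia list had a median of -0.44 over 15 genes (4 higher, 11 lower), and -0.46 without the granule-rich members. The glycolytic enzymes Gapdh, Ldha and Tpi1 stood at 1500 and 1059 CPM (-0.50), 281 and 180 CPM (-0.64) and 150 and 86.1 CPM (-0.80), while Hif1a, the hypoxia-inducible factor, stood at 415 and 456 CPM (0.14). The glycolysis list was lower in the KO by -0.48 in patrolling monocytes, -0.60 in macrophages and -0.33 in B cells. The cell cycle list had medians of 0.08, 0.49 and 0.23 there.

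**Figure D3:**
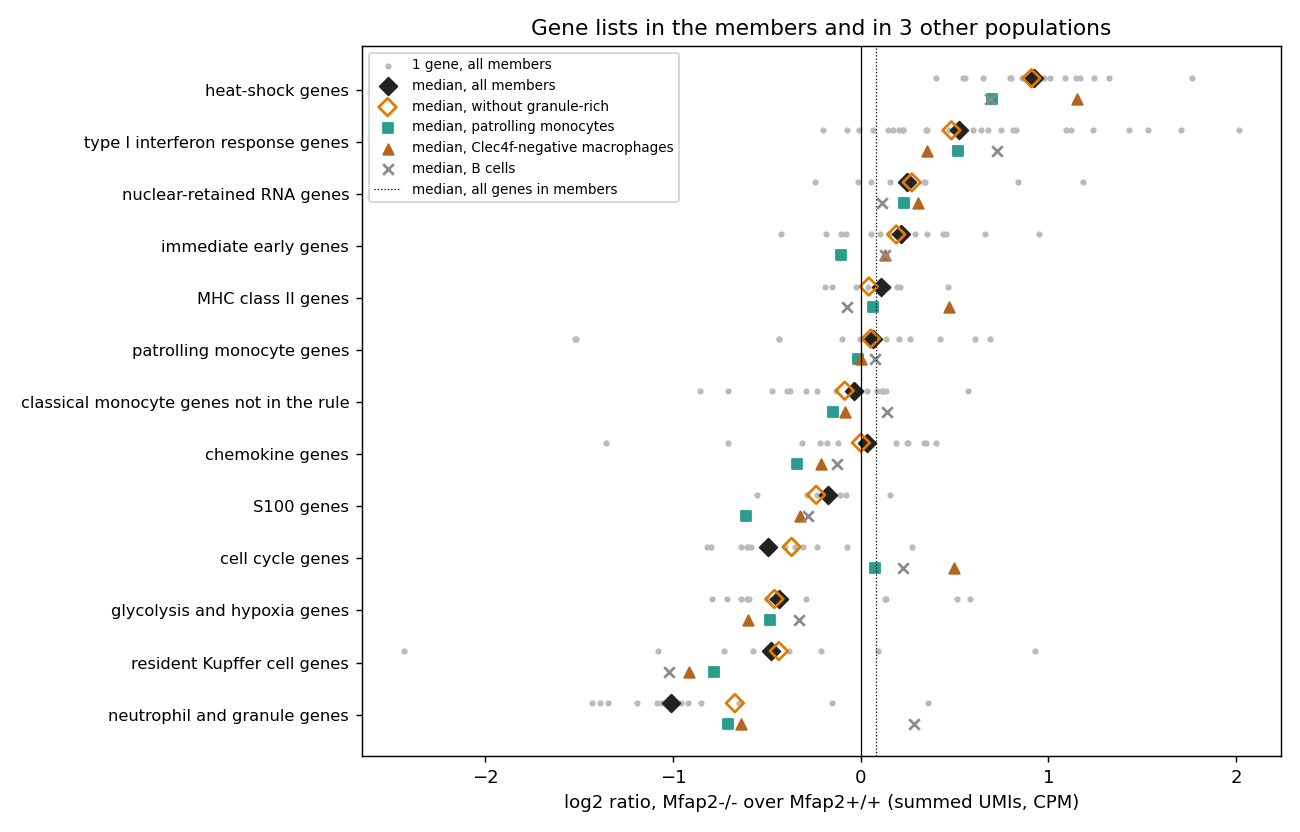
Log2 ratio of KO over WT (x axis) for 13 gene lists (rows) in members, with 1 small point per gene, the list median over all members and without the granule-rich members, and the list medians in patrolling monocytes, macrophages and B cells; the dotted line is the median of all genes, 0.08. Heat-shock genes lie to the right of 0, and granule genes mostly to the left.

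Signals that monocytes send to other cells differed gene by gene. Over all 9996 genes, 5692 were higher and 4304 lower in the KO, with a median log2 ratio of 0.08. Of 17 cytokine and inflammasome genes 11 were higher and 6 lower, with a median of 0.11, near that of all genes. Il1b, which encodes interleukin 1 beta, stood at 2661 and 2633 CPM. Its antagonist Il1rn stood at 17.9 and 38.6 CPM (1.10, 0.59 to 1.64), the prostaglandin synthase Ptgs2 at 68.7 and 129 CPM (0.91) and the inflammasome sensor Nlrp3 at 280 and 408 CPM (0.55). Tnf, tumour necrosis factor, was lower at 155 and 107 CPM (-0.54). Under the rule applied to thinned cells the ratio of Il1rn was 0.39 and that of Nlrp3 was 0.04.
The 12 measured chemokine genes divided into 6 higher and 6 lower. Ccl3 and Ccl4, attractants of monocytes and T cells, stood at 427 and 539 CPM and at 851 and 1082 CPM, Ccl2, the ligand of Ccr2, at 204 and 187 CPM, and the neutrophil attractant Cxcl2 at 2510 and 2155 CPM. The ratios of Ccl3 and Ccl4 turned to -0.09 and -0.17 under the thinned rule. Ccl7, another Ccr2 ligand, stood at 21.2 and 7.98 CPM (-1.36), with 65.5% of WT and 68.4% of KO UMIs in 5 cells.
Among 15 matrix, protease and growth factor genes, 11 were higher and 4 lower, with a median of 0.23 beside 0.08 over all genes. Vegfa (ENSMUSG00000023951, chromosome 17 from 46016993 to 46032369), a growth factor for vessels, stood at 47.1 and 114 CPM (1.27, 0.96 to 1.59), and at 22.0 and 34.3 CPM in patrolling monocytes and 83.3 and 130 CPM in macrophages. Hgf, hepatocyte growth factor, stood at 26.7 and 53.3 CPM (0.99) and the protease Mmp19 at 24.5 and 49.1 CPM (0.996). Tgfbi, a matrix protein induced by TGF-beta, stood at 291 and 229 CPM (-0.34). The plasminogen activator inhibitor Serpinb2 stood at 24.5 and 10.5 CPM (-1.19), with 76.1% of its WT UMIs in 5 cells. Leaving out the 5 richest cells per library turned its ratio to 0.20.

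Surface receptors for pathogens and lipids had a median log2 ratio of 0.05 over 20 genes. The scavenger receptor Cd36 was the member at least 2-fold higher in the KO, at 41.3 and 104 CPM (1.33, 1.01 to 1.67), but 59.7% of its KO UMIs lay in 5 cells. Leaving these out, with the 5 richest WT cells, gave a ratio of 0.50, and under the thinned rule it was -0.11. The formyl peptide receptors Fpr1 and Fpr2 were lower, at 28.1 and 13.9 CPM (-0.997) and at 36.5 and 19.3 CPM (-0.90). Homing and adhesion genes had a median of 0.15 over 15 genes, with the hyaluronan receptor Cd44 at 3385 and 5217 CPM (0.62) and the integrin chain Itga4 at 280 and 434 CPM (0.63).

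Genes of macrophage fates had list medians below or near 0. Resident Kupffer cell genes had a median log2 ratio of -0.48 over 8 genes, with the scavenger receptor Marco at 40.6 and 7.14 CPM (-2.44) and Cd5l, a secreted scavenger protein, at 163 and 76.9 CPM (-1.08). Both were also lower in the KO in B cells, Marco at 152 and 13.6 CPM and Cd5l at 379 and 154 CPM, levels above those in members, and the list had a median of -1.02 in B cells. Macrophage maturation genes had a median of 0.06 over 12 genes, with Apoe, an apolipoprotein, at 1606 and 2126 CPM, and scar-associated macrophage genes one of -0.16 over 11. Summed, the maturation list stood at 2355 and 2898 CPM in members, below B cells at 4668 and 4803 CPM. Patrolling monocytes stood at 2745 and 2996 CPM. The log2 ratio of Apoe was 0.30 without its 5 richest cells per library and 0.14 under the thinned rule. Spp1, osteopontin, stood at 114 and 197 CPM (0.79), a ratio that was 0.31 when the 5 cells richest in it were left out of each library.
Fabp4, a fatty acid binding protein of the patrolling list, stood at 128 and 44.1 CPM (-1.52, -1.86 to -1.21), and was lower in KO patrolling monocytes too, at 337 and 183 CPM. The patrolling list as a whole had a median of 0.07 over 15 genes. MHC class II genes had a median of 0.11 over 9 genes, with H2-Ab1 at 365 and 375 CPM, and 5 cells held 59.3% of WT and 45.2% of KO H2-Ab1 UMIs. With the 5 richest cells per library left out, the ratios were 0.47 for H2-Ab1, 0.60 for H2-Aa and 0.50 for H2-Eb1. A median member had 0.0848% of its UMIs in the MHC class II list in the WT and 0.139% in the KO. An H2-Ab1 UMI was found in 66.1% of WT and 85.9% of KO members, and after thinning in 31.1% and 55.4%, beside 93.4% and 95.6% of B cells, which express the gene themselves. Saa3, an acute-phase protein, stood at 251 and 104 CPM (-1.27), against 14.97 and 12.6 CPM in B cells, and 5 cells held 66.4% of its KO UMIs.

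Genes named for the size of their ratio alone included several outside the lists. Among those higher in the KO were the linker histone genes Hist1h1e at 56.6 and 177 CPM (1.64) and Hist1h1b at 69.8 and 142 CPM (1.03), and Hist1h2bc, a core histone gene, was lower at 262 and 103 CPM (-1.34). Histone genes share sequence, and Hist1h1e overlaps Hist1h2be on its own strand, so these values are uncertain. Without the 5 richest cells per library the ratio of Hist1h1b was 0.39, while those of Hist1h1e and Hist1h2bc were 1.66 and -1.30. Irak2, a kinase of toll-like receptor signalling, stood at 271 and 562 CPM (1.05), Smad3, a transducer of TGF-beta signals, at 71.2 and 147 CPM (1.05), and Atp2b4, a calcium pump, at 80.4 and 167 CPM (1.05). Mpp7, a scaffold protein, stood at 330 and 753 CPM (1.19) and Nav1 at 80.0 and 184 CPM (1.20). All of these except Hist1h2bc were also higher in KO patrolling monocytes and macrophages, Irak2 at 278 and 458 CPM in the former and at 281 and 412 CPM in the latter. Chst11, a sulfotransferase, stood at 69.1 and 135 CPM (0.97), and its ratio was -0.08 under the thinned rule.

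**Figure D4:**
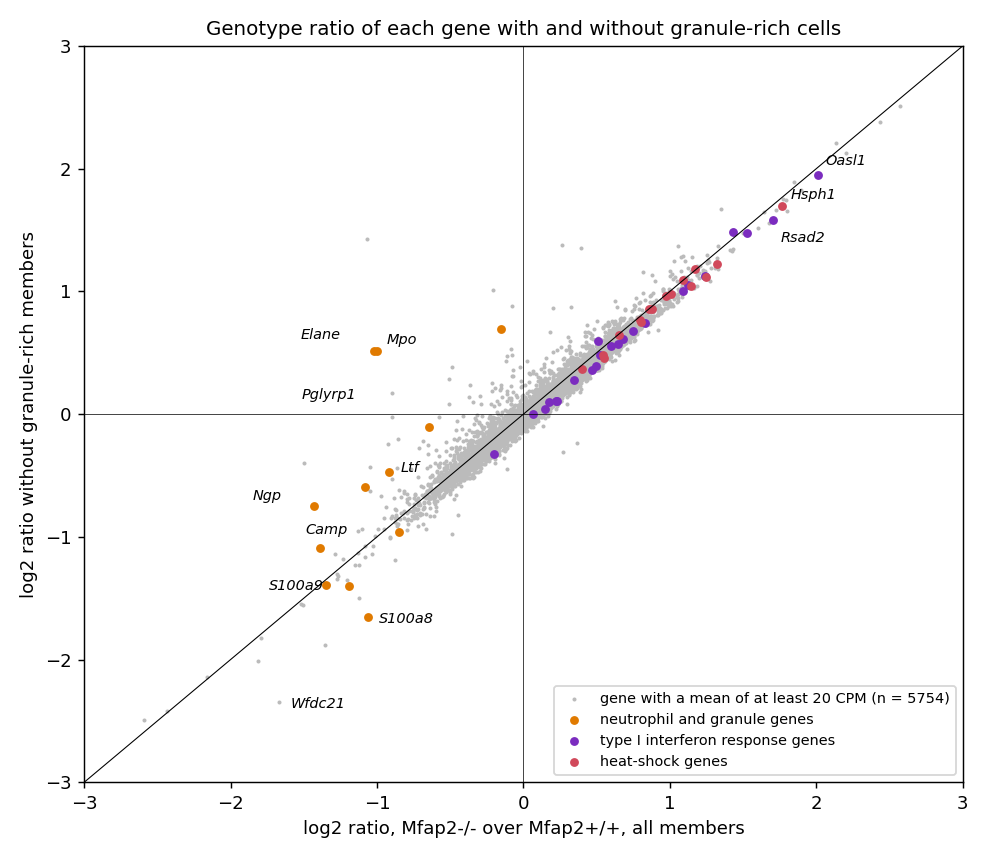
Log2 ratio of KO over WT in all members (x axis) and without the granule-rich members (y axis), 1 point for each of 5754 genes, of which 1 lies outside the axes, with the diagonal drawn as a line. Most genes lie along the diagonal, while Elane, Mpo and Pglyrp1 have negative ratios on the x axis and positive ones on the y axis, where 9 KO cells hold 74.6% of the early granule UMIs.

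Against patrolling monocytes, members differed strongly in both libraries, as a description since both groups were chosen from these counts. Of 6179 genes, 349 (5.65%) were at least 2-fold higher in members in both libraries and 419 (6.78%) at least 2-fold lower. Of the classical monocyte genes outside the rule, 8 of 18 were at least 2-fold higher in both and 1 was lower, and of the patrolling genes outside the rules 11 of 12 were at least 2-fold lower. Fn1 had a log2 ratio of members over patrolling monocytes of 3.81 in the WT and 3.70 in the KO, and Thbs1 4.42 and 4.61. The growth factor Nrg1, neuregulin 1, had ratios of 4.65 and 4.07.
Lower in members were the adhesion molecule Pecam1 (-4.30 and -4.22), the lipid regulator Pparg (-4.02 and -4.18), the enolase Eno3 (-4.01 and -3.90), the ion transporter Slc12a2 (-4.73 and -4.66) and Cd36 (-3.74 and -2.92). Bcl2a1a and Bcl2a1d, near-identical survival genes whose reads may be shared, were lower as well. Granule genes had high ratios that rested on the granule-rich cells: Camp had 5.01 and 4.53 with them and -0.01 and -0.20 without. Without them Prtn3, proteinase 3, had ratios of 3.92 and 4.57 and Elane, neutrophil elastase, 2.33 and 3.51, values that again include the 10 WT and 9 KO members with 0.2 to 2% granule UMIs. Cell cycle genes were at least 2-fold higher in members for 10 of 12, and interferon genes for 9 of 23.

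Against Clec4f-negative macrophages, 497 of 6408 genes (7.76%) were at least 2-fold higher in members in both libraries and 688 (10.7%) at least 2-fold lower. Nrg1 again had high ratios, 5.37 and 4.21, together with the phospholipase Plcb1 (4.18 and 4.55), the homeodomain gene Hopx (4.22 and 4.03), Stxbp6 (3.96 and 4.11) and coagulation factor F10 (3.80 and 4.04). Lower in members were genes of mature macrophages: the elastase Mmp12 (-4.76 and -4.76), Mertk, a receptor for dying cells (-4.42 and -3.97), Ms4a7 (-4.39 and -4.24) and the integrin chain Itga9 (-4.26 and -4.05). F10 did not set members apart from patrolling monocytes, at 300 and 352 CPM in members and 429 and 399 CPM there.

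**Figure D5:**
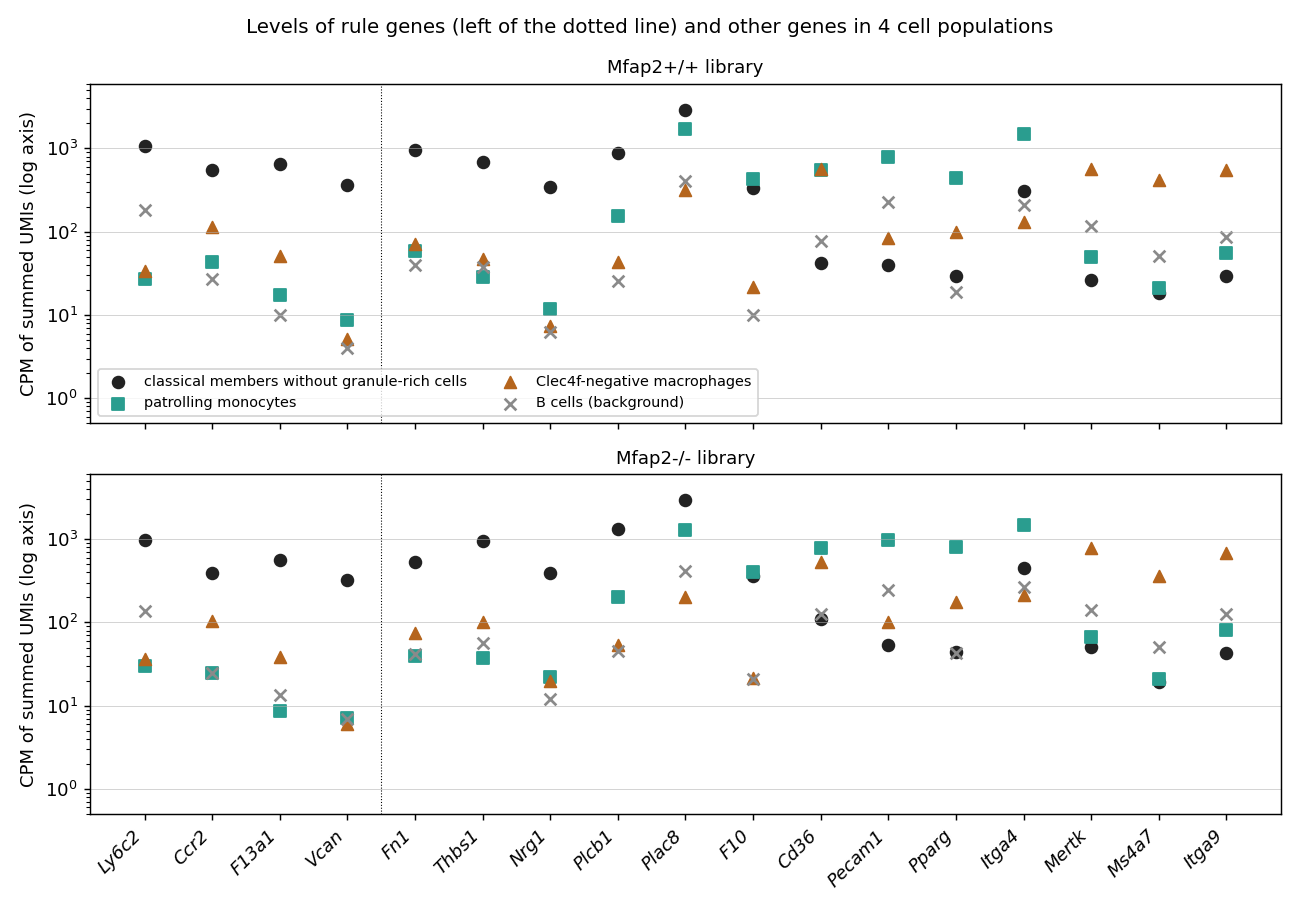
Level in CPM (log axis) of the rule genes Ly6c2, Ccr2, F13a1 and Vcan and of 13 genes outside the rule in members without the granule-rich cells, patrolling monocytes, Clec4f-negative macrophages and B cells, for the WT (top) and the KO library (bottom). Fn1, Nrg1 and Thbs1 are highest in the members, Pecam1 and Pparg in the patrolling monocytes and Mertk and Ms4a7 in the macrophages.

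Among themselves the members varied most in granule genes. Each member was thinned to 3000 UMIs, which left 273 WT and 202 KO cells, and the Fano factor (variance over mean) was taken for 3645 genes, with medians of 1.13 and 1.15. The 15 highest were S100a9, S100a8, Camp, Ngp, Lcn2, Elane, Ltf, Prtn3, Cxcl2, G0s2, Cd74, Acsl1, Saa3, Ccl5 and Fos, and 8 of these 15 were among the highest 15 without the granule-rich members. Across cells, Camp and Ngp had a Pearson r of 0.93 in the WT and 0.95 in the KO, and of 0.05 and -0.00 without the granule-rich members. Both genes are part of the cut that defines those members, so the fall follows from the selection. Cells share their library and dissociation, so these correlations are descriptions. Hspa1a and Hspa1b had an r of 0.65 and 0.68. Cd74 and H2-Aa, genes of antigen presentation, had an r of 0.86 and 0.83 but a Spearman rho of 0.17 and 0.15, the MHC class II UMIs lying in few cells. Elane and Camp had an r of 0.08 and 0.10. Oasl1 and Ifih1 had an r of 0.36 and 0.69.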

How the data were processed

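Single-cell RNA libraries were made with Chromium 3′ v3 chemistry, per the labels' protocols. The deposited matrices hold raw UMI counts per gene and barcode. Cell Ranger 7.0.1 produced them, per the file headers, while the submitters' processing notes name Cell Ranger 3.1.0, Seurat and mm10. Of 32285 gene identifiers, 32158 occur in GENCODE M21, used for positions and overlaps only. Whether intronic or antisense reads were counted is not given in the sources used here.

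Counts were summed over members per library with python 3.11.15, numpy 2.4.6, scipy 1.17.1 and pandas 2.3.3. CPM are per 1e+06 UMIs of the members. Log2 ratios are KO over WT with 1 count added to each sum. List medians use genes whose UMIs in both libraries sum to at least 20. CPM intervals are exact Poisson, shares Clopper-Pearson and ratios exact conditional intervals, and PCR or capture effects are not in them. On counts simulated from the Poisson model that these intervals assume, 96.2% of intervals over 10025 genes held the true ratio. This checks the computation only, since the simulation held no spread among cells. No test was run, since each genotype has 1 library.

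The members, the 24 gene lists and 11 lists of other cell types were chosen with earlier results of these data known. The genes named are the 4 most abundant of each list, other list genes at least 2-fold apart with at least 50 UMIs, the 15 highest and 15 lowest ratios at a mean of at least 100 CPM, the 15 highest Fano factors, and the 15 most different from patrolling monocytes and 10 most different from macrophages in each direction. Ranked genes had to reach the level of all other cells in the library where they were higher. Further genes of the lists were named after their values were seen. Doublets were not removed by a caller in the main values: Scrublet in scanpy 1.11.5, at 0.8% per 1000 barcodes, would remove 16 WT and 7 KO members. Alternatives covered the limits of the rule, depth, scaling, doublets, the counts added, the low-count filter and the deepest cells. Leaving out the granule-rich members, leaving out the 5 richest cells of a gene and a C1q limit of 20 were chosen after seeing the data. Mx1, Mnda and Clec7a were not analysed here. Some genes that the naming rule would name are not reported here.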

Additional observations from a re-analysis of the deposited data

How the results depend on the processing

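No paired analysis was possible because each genotype has 1 library. The lower share of members and the higher medians of the interferon and heat-shock lists held their direction under every alternative computed. The share's log2 ratio lay between -1.36 and -0.45, the interferon median between 0.44 and 1.05 and the heat-shock median between 0.82 and 1.08. With at most 3 C1q UMIs the share was -1.36, 350 genes were at least 2-fold higher and 111 lower, and medians were 1.05 for interferon, 0.064 for immediate early and -0.45 for granule genes. Under the rule on thinned cells the share was -0.91, and medians were -0.034 for immediate early, 0.59 for MHC class II, -0.32 for classical and -0.74 for granule genes. Members thinned before summing gave 227 higher and 90 lower genes, 0.41 for MHC class II and -1.24 for granule genes. The mean of per-cell CPM gave -0.19 for classical and -1.20 for granule genes. The granule median was -0.85 with a C1q limit of 20 and -0.67 without the granule-rich members, where 8 of the 15 most variable genes were shared. MHC class II genes had 0.42 with at least 5 Ly6c2 UMIs and 0.45 without the 5 deepest members, and immediate early genes 0.13 under the median of ratios. With no filter on low counts 2591 genes were at least 2-fold higher and 988 lower. Of 140 genes named by list or ratio, 115 reversed under no alternative. With at most 3 C1q UMIs the reversed ratios were Cebpb -0.00013, Cebpe 0.43, Clec4e -0.088, Cxcl9 1.09, Lyz2 -0.074, Mki67 -0.27, Pglyrp1 0.22, Plac8 -0.11, S100a9 0.029 and Tgfb1 -0.45. On thinned cells they were Ccl3 -0.093, Ccl4 -0.17, Cd36 -0.11, Cebpb -0.051, Chst11 -0.080, Clec4e -0.50, Elane 0.14, F10 -0.36, Fos -0.059, Hif1a -0.11, Ifi27l2a -0.20, Lyz2 -0.15, Mpo 0.0014, Nr4a1 -0.090, S100a4 -0.12 and Tubb5 0.0035. Without the granule-rich members they were Elane 0.51, Mpo 0.51 and Pglyrp1 0.18. With members thinned they were Cxcl9 0.0016, Tgfb1 -0.041 and Vsig4 0.34, and Cxcl9 had 0.76 after Scrublet, 0.28 by per-cell means and 0.20 without its 5 richest cells, as did Serpinb2 at 0.20. The cause of these changes was not tested. Depth limits genes under 20 UMIs, and the KO members were the deeper ones, so shares of cells with a UMI were also taken after thinning.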

Other observations

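Several gene groups had no place in the comparisons above. Dendritic cell genes had a median log2 ratio of KO over WT of 0.35 over 11 genes, 6 higher and 5 lower. Cd209a, a lectin of monocyte-derived dendritic cells, had 1 UMI in WT and 13 UMIs in KO members. Flt3, a growth factor receptor of dendritic precursors, stood at 23.7 and 15.1 CPM, and Clec9a, a receptor of cross-presenting dendritic cells, at 8.40 and 17.2 CPM, with 91.3% of its WT and 78.0% of its KO UMIs in 5 cells.

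Iron and haem genes had a median of -0.21 over 9 genes. The ferritin chains Fth1 and Ftl1 stood at 5612 and 4606 CPM and at 3737 and 2797 CPM, lower in the KO, while Hmox1, which breaks down haem, stood at 118 and 154 CPM. S100 genes other than S100a8 and S100a9 had a median of -0.17 over 6 genes, with S100a6 at 1945 and 1595 CPM and S100a4 at 993 and 1105 CPM. The ferritin chains were also lower in KO patrolling monocytes and macrophages, Fth1 at 7412 and 5110 CPM and at 8526 and 5549 CPM.

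Gzma, a protease of cytotoxic lymphocytes and a gene of the T and NK list, stood at 18.3 CPM in WT and 100.4 CPM in KO members. Of its KO UMIs, 5 KO cells held 93.7%, and whether these cells were doublets was not tested.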
